A study of Mus musculus with 3 samples.

Results

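Conventional dendritic cells type 2 (cDC2) were picked out of the mouse liver as 52 of 25263 cells by a gate on their own transcripts. A cell was a barcode with at least 200 detected genes. It entered the gate when at least 2 of the 5 genes Cd209a, Mgl2, Clec10a, Flt3 and Ccl17 had a unique molecular identifier (UMI, a tag that counts 1 captured mRNA molecule). It also needed at least 3 UMIs of Cd74, no UMI of Xcr1 or Clec9a, and fewer than 2 detected genes among Ccr7, Ccl22, Fscn1 and Il12b. The members were thus chosen by their measured UMIs of these genes. The study injured livers of adult C57BL/6 mice by irreversible electroporation (IRE), in which short electric pulses open the membranes of cells beyond repair. The labels give 8 pulses of 50 ms at 75 V with 1 s between them, whereas the study's methods give a different voltage and name no sham surgery. Cells came from a 4 mm punch of the injured area, or of the same uninjured area after sham surgery, and were dispersed by enzymes. Droplet-based single-cell libraries (Drop-seq) were made from sham-operated control livers sacrificed after 1 day (38 members among 10386 cells), from livers 1 day after IRE (7 of 9253) and from livers 7 days after IRE (7 of 5624). Each condition was 1 library pooled from 3 livers, so that no difference between conditions could be set against the spread between animals, and none was tested.

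Dendritic cells take up material in tissues, cut it into peptides and show these to T cells. The cDC2 present peptides mainly on MHC class II molecules to CD4 T cells, whereas cDC1, marked by Xcr1 and Clec9a, are specialised in showing engulfed antigen on MHC class I to CD8 T cells. In class II presentation, H2-Aa and H2-Ab1 encode the 2 chains of I-A, H2-Eb1 the beta chain of I-E, Cd74 the invariant chain that guards the groove during transport, and H2-DMa and H2-DMb1 the chains of the helper that exchanges its remnant for a peptide. Cd209a, Mgl2 and Clec10a encode lectins that bind sugars, Flt3 the receptor for a growth factor on which dendritic cells depend, and Ccl17 a chemokine that attracts T cells.

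Among genes outside the rule with at least 10 UMIs in the members of each library, H2-Eb1, H2-Aa and H2-Ab1 stood furthest above the other cells. Their promoters are known to share a conserved module in which the Y box, read by the factor NF-Y, lies downstream of the X box, read by RFX factors. The 150 bases before the start of 3 class II genes are shown because the results turn on this family. H2-Eb1 and H2-DMb1 matched the letters searched for both boxes, and H2-Aa matched only those searched for the Y box. The missing match does not show that H2-Aa lacks an X box, because only a fixed pattern of letters was searched. They were read 5′ to 3′ on the gene's strand from RefSeq windows of the build GRCm38.p6. Capitals mark the letters CTGATTGG or the shorter ATTGG inside it (Y box core, found on either strand, so that CCAAT is its complement) and AGNNACNGA (the letters taken for the X box, either strand).
H2-Aa, chr17:34287824-34287973, minus strand: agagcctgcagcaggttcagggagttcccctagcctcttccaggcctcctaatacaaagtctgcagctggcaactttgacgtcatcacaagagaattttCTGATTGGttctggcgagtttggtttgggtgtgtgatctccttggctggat
H2-Eb1, chr17:34305717-34305866, plus strand: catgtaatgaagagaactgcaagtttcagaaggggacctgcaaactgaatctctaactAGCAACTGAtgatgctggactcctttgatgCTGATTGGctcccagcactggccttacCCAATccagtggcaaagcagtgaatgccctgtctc
H2-DMb1, chr17:34153041-34153190, plus strand: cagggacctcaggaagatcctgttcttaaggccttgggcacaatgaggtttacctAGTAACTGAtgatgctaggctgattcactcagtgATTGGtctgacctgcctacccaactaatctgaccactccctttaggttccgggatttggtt
CTGATTGG began 51 bases before the start of H2-Aa and 62 before that of H2-Eb1. The X box letters began 92 bases before the start of H2-Eb1 and 95 before that of H2-DMb1. The class II list of this report holds 10 genes, among them Ciita, a regulator of the class II genes. Of these genes, 8 had a RefSeq window, and H2-Ab1 and Ciita had none. CTGATTGG stood in the windows of 4 of these genes and ATTGG in those of 8, against 4.10% and 37.4% of all 32851 windows of 300 bases. AGNNACNGA stood in the windows of 5 of the 8 genes, not in that of H2-Aa, and in 17.7% of all windows, so that this short form is common. These matches are letters in a window, and binding was not measured.

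The members made up a smaller share of the cells after IRE than in the control library. They were 0.366% of control cells (exact binomial 95% interval 0.259 to 0.502%), 0.0757% at 1 day (0.0304 to 0.156%) and 0.124% at 7 days (0.0501 to 0.256%). The share was 4.84-fold lower at 1 day than in control (interval 2.13 to 12.8) and 2.94-fold lower at 7 days (1.30 to 7.80). All intervals here cover counting error only. The intervals of the 2 libraries after IRE overlap. The share also moves with every other cell that enters a library. Among the cells with at least 3 Cd74 UMIs, the members were 2.21% in control (38 of 1723), 1.14% at 1 day (7 of 612) and 2.13% at 7 days (7 of 329). On that scale the ratio to control was 0.519 at 1 day (0.195 to 1.18) and 0.965 at 7 days (0.364 to 2.19), and both intervals include 1.

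**Figure D1:**
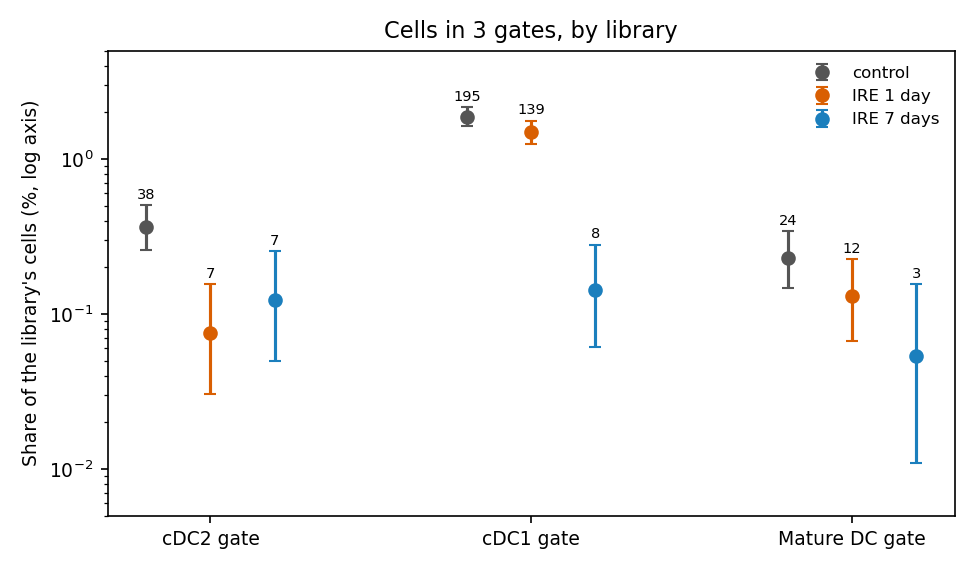
Share of each library's cells in 3 gates (percent, log axis) in the control library and 1 and 7 days after IRE. Points are shares, bars exact binomial 95% intervals for counting error, and the numbers are cells; the cDC2 gate holds 38, 7 and 7 cells, and the cDC1 gate 195, 139 and 8.

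The other dendritic gates had different courses. Cells with Xcr1 or Clec9a and the same Cd74 limit (cDC1 gate) numbered 195 in control (1.88% of cells), 139 at 1 day and 8 at 7 days (0.142%). Cells with at least 2 of the 4 maturation genes and the same limit (mature DC gate) numbered 24, 12 and 3. The cDC2 gate thus held 14.8% of the cells of the 3 dendritic gates in control (38 of 257, interval 10.7 to 19.7%), 4.43% at 1 day (7 of 158, 1.80 to 8.92%) and 38.9% at 7 days (7 of 18, 17.3 to 64.3%). The interval at 1 day lies below that in control, and the interval at 7 days overlaps it.

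The genes of the rule are given as a description, since they chose the members. Cd209a had 38 UMIs in the control members, 9 at 1 day and 6 at 7 days. Clec10a had 29, 3 and 6, Mgl2 27, 6 and 2, and Flt3 11, 2 and 2. Cd209a was detected in 25 of the 38 control members and Clec10a in 23, and the pair occurred together in 14, more often than any other pair. Ccl17 had 18 UMIs in 4 control members, 11 of them in 1 cell, none at 1 day and 1 at 7 days. Among the other control cells, Cd209a was found in 0.725%, Mgl2 in 0.532%, Clec10a in 1.90% and Flt3 in 0.831%. Most members passed the rule narrowly. Exactly 2 of the 5 markers were found in 33 of 38 control members, 5 of 7 at 1 day and 7 of 7 at 7 days, and the others had 3. Cd74 stood at its limit of 3 UMIs in 9, 4 and 0 members. Just outside, 11, 4 and 1 cells with at least 2 markers had 2 Cd74 UMIs, and 156, 47 and 32 cells with enough Cd74 had 1 marker. Xcr1 or Clec9a removed 2, 1 and 0 cells, and the maturation genes removed none. Counting the cells with 1 marker gave shares of 1.87%, 0.584% and 0.693%, lower after IRE than in control as before.

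Members were somewhat deeper than the cells around them. The 52 members had 319 to 3224 UMIs (median 762) and 207 to 1464 detected genes. Median UMIs were 749 in control, 933 at 1 day and 697 at 7 days, against 594, 509 and 456 in the other cells. Cells with at least 3 Cd74 UMIs and none of the 5 markers had medians of 886, 728 and 620. Cells with Xcr1 or Clec9a and the same Cd74 limit had 1074, 909 and 746. The median mitochondrial share of a member's UMIs was 18.3% in control and 2.33% at 7 days, and that of the other cells 18.5% and 3.30%. At 1 day the members ranged from 11.4 to 37.2%, and the median of the other cells was 23.1%. The library at 7 days thus stood apart in mitochondrial RNA in members and other cells alike. Cells of different libraries shared 44 to 149 barcode sequences per pair of libraries, and no member's barcode was a cell in another library.

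The name was set beside genes that the rule did not use, as a description. In the levels below, CPM is the number of UMIs of a gene per 1000000 UMIs summed over the cells of a gate, and "other cells" are all cells of the same library outside the gate. Of the 50 genes with at least 10 UMIs in the members of each library, 3 were over 2-fold higher than in other cells in all libraries: H2-Eb1, H2-Aa and H2-Ab1, at least 4.73-, 4.59- and 4.04-fold. The 50 genes were filtered on the members' own UMIs, and Cd74, which the rule asks for, serves the same pathway as the class II genes. Cst3, which encodes the protease inhibitor cystatin C and is abundant in dendritic cells, came next with at least 1.93-fold. Of the 20 leading genes, 11 encode ribosomal proteins. Other dendritic cell genes outside the rule were sparse. The 13 listed for both cDC subsets, Cst3 among them, held 0.770% of the members' UMIs in control, 0.802% at 1 day and 1.17% at 7 days, against 0.401%, 0.337% and 0.295% in other cells. The 16 listed for cDC2 held 0.304%, 0.177% and 0.518%, against 0.161%, 0.106% and 0.332%. S100a4 alone supplied 37 of that list's 112 UMIs in control members and 17 of 27 at 7 days. In other cells S100a4 was 2.48-fold higher at 7 days than in control, so the list's share at 7 days rests largely on 1 widely found gene. At 1 day the cDC2 list had 13 UMIs, and its interval (0.0941 to 0.302%) includes the share of other cells. Of the 3 cDC2 genes that could be counted against Cd74 cells without a marker in control, 1 was past 2-fold higher and 1 past 2-fold lower. Nothing here was tested, and most of the listed cDC2 genes were too sparse to be read singly.

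Class II transcripts were present in every member. H2-Aa, H2-Ab1 and H2-Eb1 together had 7 to 60 UMIs in a control member (median 22.5), 2 to 62 at 1 day (median 22.0) and 15 to 54 at 7 days (median 29.0). As a share of the cell's own UMIs they took 1.19 to 5.71% in control (median 2.76%), 0.374 to 3.74% at 1 day (median 1.95%) and 2.15 to 6.04% at 7 days (median 4.98%). The ranges of all 3 libraries overlap. The median lay above that of the cells with at least 3 Cd74 UMIs and none of the 5 markers, which was 1.31%, 0.684% and 1.44%. It lay above the cDC1 gate in control (2.15%) and at 7 days (2.13%, 8 cells) and below it at 1 day (2.29%). Other cells had a median of 0.226%, 0.131% and 0.

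**Figure D2:**
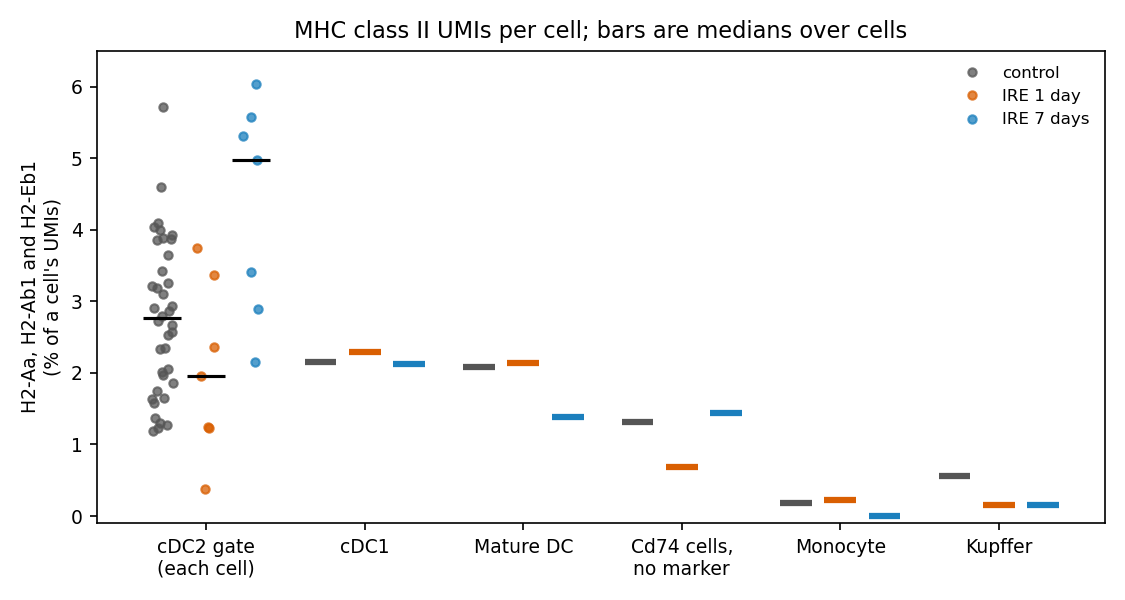
Share of a cell's UMIs from H2-Aa, H2-Ab1 and H2-Eb1 (percent) for each of the 52 members of the cDC2 gate (points, black bars are medians) and as medians over the cells of 5 other sets (coloured bars), by library. Members span 0.374 to 6.04%; the medians of the monocyte and Kupffer sets stay under those of the dendritic gates.

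Set against other Cd74 cells, H2-Aa, H2-Ab1 and H2-Eb1 were higher in the members of every library. H2-Aa stood at 7349 CPM in the control members, 7749 at 1 day and 15541 at 7 days. This was 2.09-, 2.96- and 3.13-fold the level in Cd74 cells without a marker. H2-Ab1 stood at 11553, 9380 and 16884 CPM and H2-Eb1 at 7675, 6797 and 9210 CPM. In control the 2 genes were 1.95-fold (interval 1.77 to 2.15) and 2.14-fold (1.89 to 2.42) above those cells. Over the 481 genes with at least 10 UMIs foreseen in the control members from the level of those cells, 1.46% were past 2-fold higher and 16.8% past 2-fold lower. The corresponding shares were 11.9% and 27.4% of 84 genes at 1 day, and 7.55% and 18.9% of 53 at 7 days. Of the class II genes counted, 2 of 5 were past 2-fold higher in control and 3 of 3 in each library after IRE. H2-DMb1 was 1.46-fold those cells in control (0.841 to 2.36) and H2-DMa 1.09-fold (0.643 to 1.74), with intervals that include 1.

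Against all other cells the same genes stood further apart. H2-Aa was 4.59-fold higher in control (4.06 to 5.18), 8.54-fold at 1 day and 18.6-fold at 7 days. Of 434 genes counted in control, 9 (2.07%) were past 2-fold higher and 52 (12.0%) past 2-fold lower. At 1 day these shares were 14.0% and 29.8% of 57 genes, and at 7 days 0 and 38.6% of 44 genes, a count that holds no class II gene because too few of their UMIs were foreseen. The widening of the H2-Aa ratio came with lower levels in the other cells, where the gene went from 1600 CPM in control to 907 at 1 day and 834 at 7 days. In those cells a change in makeup and a lower level per cell cannot be told apart.

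A few less abundant genes also stood high in control. They passed the minimum of 10 UMIs through the members and were picked for their fold, so their values are a description. Clec4b1, a C-type lectin receptor gene, had 14 UMIs in 11 of 38 control members. Its 380 CPM were 10.2-fold above other cells (5.51 to 17.4), 16.3-fold above the cDC1 gate (5.87 to 51.6) and 14.0-fold above cells with at least 2 of Ly6c2, Ccr2, F13a1 and Vcan (monocyte gate, 6.46 to 29.9). With every cell thinned to 500 UMIs and shallower cells left out (4 members and 3790 other cells in control), Clec4b1 was found in 20.6% of members and 1.72% of other cells, and unthinned in 28.9% of members. After IRE it had 2 UMIs at 1 day and 0 at 7 days, where 0 of 5212 UMIs allows up to 3.

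Napsa, which encodes the aspartic protease napsin A, had 21 UMIs in 15 control members, 0 at 1 day and 3 at 7 days. Its control level was 5.95-fold that of other cells (3.66 to 9.17) and 26.7-fold that of cells with at least 2 of Clec4f, Vsig4, Cd5l, Timd4 and Marco (Kupffer gate, 14.8 to 47.1). Itgb7 (integrin beta 7), Rnase6, Rassf4 and Gm2a (the GM2 activator) were 3.32- to 3.79-fold above other cells in control, with 13 to 34 UMIs each. These 4 genes, Clec4b1 and Napsa were named after their values in control had been seen, and Whsc1 (5.13-fold, 11 UMIs) and Taf1d (4.04-fold, 12 UMIs) stood as high as some of them. Itgb7 and Rnase6 had no UMI in the 14 members after IRE.

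Some genes at the 2 ends of the contrast with the cDC1 gate are named after their ratios had been seen, so their values are a description. Of 479 genes counted in control, 5 (1.04%) were past 2-fold higher in members and 60 (12.5%) past 2-fold lower. The lowest ratios included those of Apoc1 (0.0505), Dnase1l3 (0.0830) and Marco (0.124), of which Marco is in the rule of the Kupffer gate. Irf8, the transcription factor on which cDC1 depend, stood at 81.4 CPM in members and 1004 in the cDC1 gate, a ratio of 0.0810. Cadm1, an adhesion molecule of cDC1, had a ratio of 0.194, and Cd24a one of 0.0981. Ifi205 had 1 UMI in members against 169 in the cDC1 gate. Irf8, Cadm1, Cd24a and Ifi205 had 7 UMIs together in the control members, spread over 1 to 3 per gene.

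**Figure D3:**
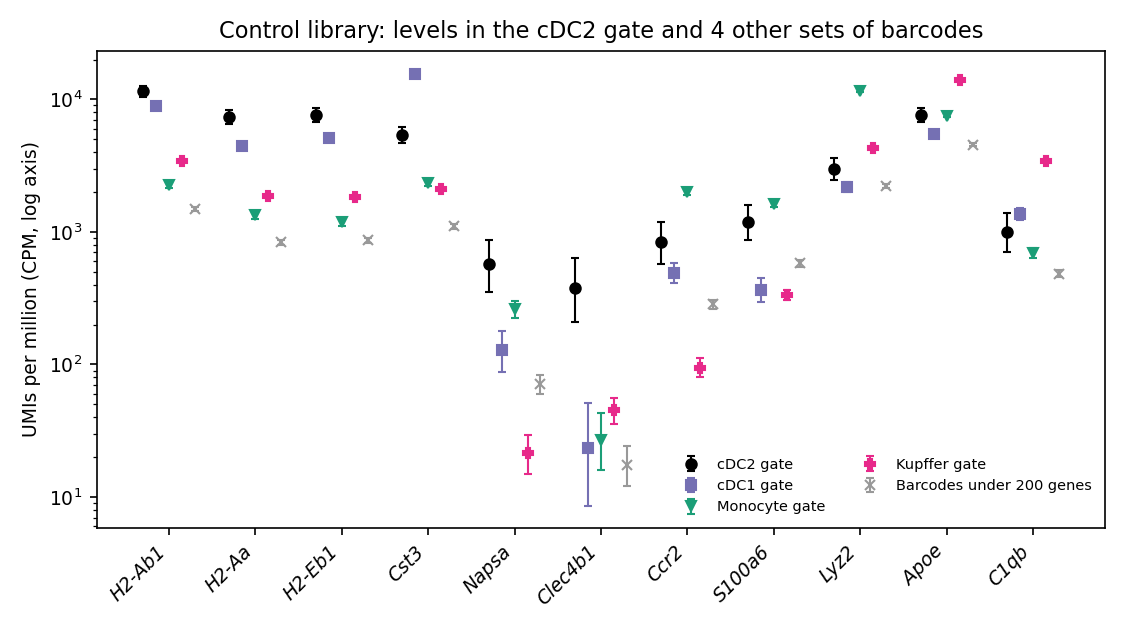
Levels of 11 genes (CPM, log axis) in the control library in the cDC2 gate, 3 other gates and barcodes under 200 genes, with exact Poisson 95% intervals. The 3 class II genes, Napsa and Clec4b1 are highest in the cDC2 gate among these sets, and Cst3 is higher in the cDC1 gate.

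Cst3 was also lower in members than in the cDC1 gate. It had 5424 CPM in control members, 4758 at 1 day and 7675 at 7 days, against 15494, 19393 and 28043 in the cDC1 gate, so that members held 0.350, 0.245 and 0.274 of its level. Id2, another regulator of cDC1, had 19 UMIs in members and 0.422 of the cDC1 level. In the other direction, S100a6 was 3.26-fold higher in members (2.23 to 4.71), Fxyd5 2.69-fold and Ctsh, a cathepsin gene, 2.59-fold (1.58 to 4.11). Itgam, the CD11b integrin chain that cDC2 share with monocytes, was 8.13-fold above the cDC1 gate (3.49 to 19.2) with 14 UMIs in 9 members of the control library. After IRE it had 0 UMIs in members at 1 day and 1 at 7 days, so that it could not be compared there. Sirpa, another cDC2 marker, had 7 UMIs and a ratio of 1.52 with an interval from 0.568 to 3.52.

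Monocytes and macrophages were the other neighbours. Against the monocyte gate in control, 7 of 458 genes (1.53%) were past 2-fold higher and 55 (12.0%) past 2-fold lower. H2-Eb1 was 6.44-fold, H2-Aa 5.52-fold and H2-Ab1 5.11-fold higher, and Ctsh, Gm2a, Cst3 and Hmgb1 were 2.02- to 2.55-fold higher. Vcan, which is in the rule of the monocyte gate, and Saa3 had no UMI in control members. Hp had a ratio of 0.0654. Ccr2, the receptor that draws monocytes out of the marrow, is in that gate's rule too. It had 31 UMIs in 16 control members, 0.419 of the level in the monocyte gate and 2.05-fold that of other cells (1.39 to 2.92). With members bearing macrophage markers removed, the ratio of Ccr2 to other cells was 1.30, and with 1 marker enough it was 1.26. Against the Kupffer gate, 13 of 499 genes (2.61%) were past 2-fold higher and 122 (24.4%) lower. Vsig4, which is in that gate's rule, Folr2 and Cd163 had no UMI in the control members.

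RNA of other cell types was found in many members. At least 2 of the listed Kupffer or C1q macrophage markers were detected in 14 of 38 control members, 4 of 7 at 1 day and 0 of 7 at 7 days, or 36.8%, 57.1% and 0. The shares of other cells were 39.3%, 59.7% and 23.1%. The 3 C1q genes had 73 UMIs in 15 control members, 18 of them in 1 cell, 6 UMIs at 1 day and 0 at 7 days. The 9 listed Kupffer genes summed to 0 to 6 UMIs in a control member, 0 to 4 at 1 day and 0 to 1 at 7 days. The 10 listed mast cell or basophil genes had no UMI in any library's members. At least 2 neutrophil markers were found in 18.4% of control members, 0 at 1 day and 85.7% at 7 days, against 17.5%, 3.07% and 90.1% of other cells. At least 2 hepatocyte markers were found in 10.5%, 100.0% and 14.3%, against 20.3%, 99.1% and 7.48%. At least 2 monocyte markers were found in 28.9%, 14.3% (1 of 7) and 57.1% of members, against 25.3%, 5.32% and 50.4% of other cells. The monocyte shares were thus above those of other cells in each library. Hepatocyte markers at 1 day and neutrophil markers at 7 days were thus found in most members and in most other cells. Kupffer or C1q macrophage markers at 7 days were found in 0 of 7 members and in 23.1% of other cells. The part of free RNA or of joined cells in these values was not tested.

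Some members stood apart from the rest. Mki67, a gene of dividing cells, had 27 UMIs in 6 control members, 15 of them in 1 cell, and none after IRE. Its level in control was 2.79-fold that of other cells. Without the cell with the most UMIs the ratio was 1.30, and with members bearing markers of other types removed it was 0.639. Apoe, the apolipoprotein E gene of macrophages and hepatocytes, ranged from 0 to 64 UMIs in a control member (median 2.00), and Lyz2, the lysozyme gene of myeloid cells, from 0 to 21 (median 1.00). All 21 haemoglobin UMIs at 7 days came from 1 of the 7 members.

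At 1 day, the comparison with control asked what the gate's cells looked like early after injury, and few genes stood higher. A gene was counted with at least 30 UMIs over the members of both libraries and was past 2-fold when the ratio of its CPM was at least 2 or at most 0.5. Of 181 genes, 3 (1.66%) were past 2-fold higher and 27 (14.9%) past 2-fold lower. The intervals of all 3 higher genes and of 14 of the 27 lower ones excluded 1. The median log2 ratio of all counted genes was -0.05.

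The class II genes were level at 1 day. None of the 3 counted genes was past 2-fold, and their median log2 ratio was -0.18. H2-Aa had a ratio of 1.05 (0.778 to 1.41), H2-Ab1 0.812 (0.620 to 1.05) and H2-Eb1 0.886 (0.642 to 1.20). The 10 genes of the class II list together had 0.934 (0.796 to 1.09). The level was unevenly spread over the 7 members, of which 1 held 23 of 57 H2-Aa UMIs and 2 held none. In the other cells the 3 ratios were 0.567, 0.466 and 0.426.

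Among genes of uptake and digestion, several were lower at 1 day in members and other cells. Of 6 counted genes of the 13 listed for antigen processing, 3 were past 2-fold lower, against 14.9% of all counted genes. The list held 1.64% of the members' UMIs in control and 1.07% at 1 day, and 1.62% and 1.03% in other cells. Ctss, the cathepsin that cuts the invariant chain, had 103 UMIs in control and 8 at 1 day, a ratio of 0.389 (0.164 to 0.796), and 0.431 in other cells. Ctsb had a ratio of 0.392 (0.123 to 0.962) against 0.807. Psap, the precursor of the saposins, had 0.474 (0.184 to 1.03) against 0.391. Fcer1g, the signalling chain of Fc receptors, had 0.295 (0.0589 to 0.912) against 0.818.

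S100a6 and S100a4, which encode small calcium-binding proteins, were lower in members and other cells alike. S100a6 had 44 UMIs in control members and 1 at 1 day, a ratio of 0.114 (0.00282 to 0.669), and 0.126 in other cells. For S100a4, with 37 and 2 UMIs, the ratios were 0.271 (0.0316 to 1.05) and 0.158. Hmgb1 and Anp32b, both of the nucleus, had ratios of 0.245 (0.0287 to 0.941) and 0.167 (0.00410 to 1.01). The endoplasmic reticulum chaperone Hspa5 stood at 0.284 (0.0567 to 0.875), the proteasome subunit Psmb8 at 0.271 (0.0316 to 1.05) and the copper carrier Atox1 at 0.286 (0.0334 to 1.11).

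Some macrophage genes were lower too, and for Lyz2 and Apoe 1 setting decided the direction. The listed macrophage genes did not move together. The 9 Kupffer genes had 30 UMIs in control members and 13 at 1 day, a ratio of 2.17 (1.04 to 4.29). The 7 C1q macrophage genes together had a ratio of 0.627 (0.313 to 1.15). C1qb had 37 UMIs in control and 1 at 1 day (ratio 0.135, 0.00334 to 0.803), against 0.945 in other cells. Lyz2, named here after its values had been seen, had a ratio of 0.361 (0.152 to 0.737) and Apoe 0.482 (0.312 to 0.716). Without the members bearing macrophage markers, which left 24 members in control and 3 at 1 day, the ratio of Lyz2 was 1.58 and that of Apoe 2.01.

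Alb and Rplp0 were among the higher genes at 1 day. Alb, the albumin gene of hepatocytes, had 2 UMIs in control members and 31 at 1 day, a ratio of 77.7 (19.8 to 670.0). It was 21.6-fold higher in other cells, and in barcodes under 200 genes it stood at 348 CPM in control and 7503 at 1 day. The 26 listed hepatocyte genes had 21 and 112 UMIs, 7 to 25 in each of the 7 members. Rplp0 encodes a ribosomal protein and had a ratio of 2.62 (1.51 to 4.43), against 0.816 in other cells. With 1 marker enough for the gate, the ratio of Rplp0 was 1.39. The ribosomal gene Rpl17 went the other way with 0.245 (0.0651 to 0.650).

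At 7 days, more genes stood higher. Of 186 genes, 23 (12.4%) were past 2-fold higher and 25 (13.4%) past 2-fold lower, with intervals excluding 1 for 20 and 14 of them. Among the 186 genes, 5 had no UMI at 7 days and were counted at a ratio of 0. With those set to 3 counts, 22 genes were past 2-fold lower. The median log2 ratio was 0.16, so ratios below are read against that shift. Leaving mitochondrial and hepatocyte genes out of the totals gave 16 higher and 36 lower, and setting the median log2 ratio to 0 gave 17 and 29.

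H2-Aa was among the genes past 2-fold. Its UMIs were 271 in the 38 control members, 1 to 15 in a cell, and 81 in the 7 members at 7 days, 6 to 20 in a cell. The ranges overlap, and the ratio of the CPM was 2.11 (1.63 to 2.72). It was 1.81 with mitochondrial and hepatocyte genes out of the totals, 1.89 with the median log2 ratio set to 0 and 1.75 with 1 marker enough for the gate. H2-Ab1 had a ratio of 1.46 (1.15 to 1.84) and H2-Eb1 one of 1.20 (0.865 to 1.63), which was 0.972 without the members bearing macrophage markers. The 10 genes of the class II list together stood at 1.61 (1.39 to 1.86), and at 1.38 without mitochondrial and hepatocyte genes in the totals. In other cells the ratios of the 3 genes were 0.521, 0.407 and 0.363, below 1. Higher levels at 7 days were not particular to the members: the class II list held 1.39% of the UMIs of Cd74 cells without a marker in control and 1.66% at 7 days. In the cDC1 gate H2-Aa stood at 4464 CPM in control and 8937 at 7 days, from 8 cells. The difference between members and other cells was not tested.

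Interferon-stimulated genes were higher at 7 days in members and other cells. The 25 listed genes held 0.537% of the members' UMIs in control, 0.557% at 1 day and 1.80% at 7 days, and 0.648%, 0.683% and 1.34% in other cells. The ratio at 7 days was 3.36 (2.60 to 4.31), and 3 of 3 counted genes of the list were past 2-fold higher, against 12.4% of all counted genes. Ifitm3, which encodes a membrane protein that hinders the entry of viruses, had 29 UMIs in control and 22 at 7 days, a ratio of 5.37 (2.94 to 9.67) against 2.20 in other cells. Ifi27l2a had a ratio of 2.97 (1.42 to 5.84) and Ly6e 2.42 (1.22 to 4.52). Ifitm1, too sparse to be counted, had 1 UMI in 38 control members and 14 in 4 of 7 members at 7 days. Cd74 cells without a marker also stood at 1.78% at 7 days, against 0.822% in control.

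S100a8 and S100a9, the 2 chains of calprotectin made in bulk by neutrophils, had the largest ratios at 7 days among the genes counted. S100a8 had 0 to 3 UMIs in a control member and 2 to 23 in each of the 7 members at 7 days, a ratio of 18.1 (9.96 to 34.6). S100a9 had 0 to 2 and 0 to 29, a ratio of 27.7 (14.0 to 59.5). A single member held 23 of the 41 S100a8 and 29 of the 43 S100a9 UMIs at 7 days, and without the top cell of each library the ratios were 11.3 and 12.8. The level in members, 7866 CPM for S100a8, was below that of the other cells (19887) and of barcodes under 200 genes (44662). The part of free RNA in these ratios was not tested.

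**Figure D4:**
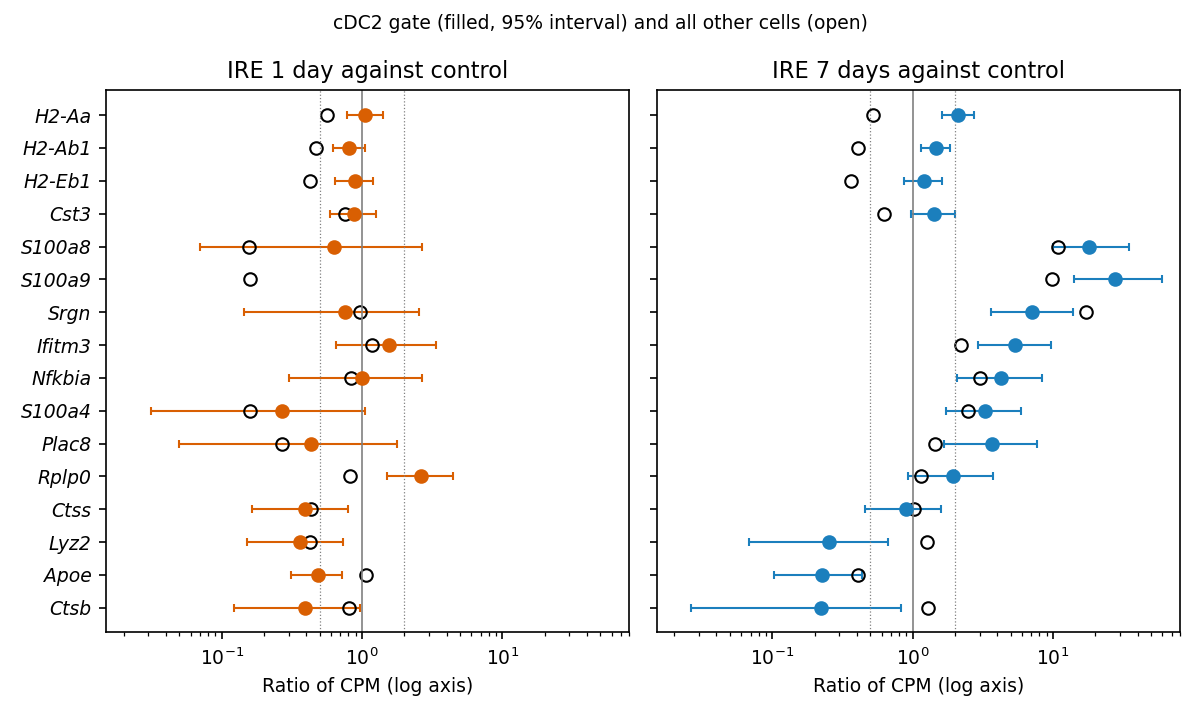
Ratio of CPM to the control library (log axis) at 1 and 7 days after IRE for 16 genes. Filled points are the cDC2 gate with conditional binomial 95% intervals and open circles the other cells; S100a9 at 1 day has no filled point because no UMI was counted, and dotted lines mark 2-fold. At 7 days the class II ratios lie between 1.20 and 2.11 in members and below 1 in other cells; H2-Eb1 is at 0.972 in members when those bearing macrophage markers are left out.

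Other genes were past 2-fold higher at 7 days. Srgn, the proteoglycan core of secretory granules, had 20 UMIs in control, 3 at 1 day and 20 at 7 days (ratio at 7 days 7.07, 3.61 to 13.9), with 17.3 in other cells. Nfkbia, the inhibitor that NF-kB itself induces, stood at 4.24 (2.08 to 8.37), and went from 455 to 1364 CPM in other cells. Alox5ap, which serves leukotriene synthesis, stood at 3.22 (1.36 to 7.08) and 5.09. These 3 genes were higher in other cells as well. Plac8 had a ratio of 3.69 (1.67 to 7.73), S100a4 3.25 (1.72 to 5.92), the actin-binding Tmsb10 3.08 (1.64 to 5.58) and the chaperone Calr 3.03 (1.40 to 6.16). In other cells Plac8 stood at 1.45, S100a4 at 2.48, Tmsb10 at 1.35 and Calr at 1.37, higher as well. A list of cytoskeletal genes also held Cd52 and Laptm5. Of its 7 counted genes, 2 were past 2-fold higher, against 12.4% of all counted genes. The list went from 2.12% to 3.38% of UMIs in other cells. The ribosomal gene Rpl15 had a ratio of 3.11 (1.38 to 6.56), against 1.30 in other cells. The listed low-oxygen and glycolysis genes were each below the count minimum. The 19 measured together had 70 UMIs in control members, 13 at 1 day and 48 at 7 days, with a ratio at 7 days of 4.85 (3.29 to 7.10), and their share of 0.921% lay below that of other cells (1.18%).

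Genes of several kinds were lower at 7 days. The 14 mitochondrial genes together had a ratio of 0.187 (0.159 to 0.218). The largest, mt-Rnr2, stood at 0.174 in members and 0.191 in other cells, a like ratio in both. C1qb, Sepp1 (the selenium transport protein) and Hmgb2 (a chromatin protein of dividing cells) had 37, 38 and 35 UMIs in control and none at 7 days. Set against 3 counts in the 7-day members they were at least 1.74-, 1.79- and 1.65-fold lower. Apoe had a ratio of 0.227 (0.103 to 0.436), Lyz2 0.255 (0.0683 to 0.671) and Ctsb 0.221 (0.0262 to 0.832, 2 UMIs), where other cells had 0.411, 1.27 and 1.28. The ribosomal gene Rpl38, Gm26924, the respiratory chain gene Cox4i1, the chaperone gene Hsp90aa1 and Anp32b each had 1 UMI at 7 days and 30 to 65 in control. Their ratios of 0.109 to 0.236 rest on that single UMI and cannot be read closely. In other cells Rpl38 had 0.644, Gm26924 0.332, Cox4i1 0.951, Hsp90aa1 0.933 and Anp32b 0.584. Without the members bearing macrophage markers, all of them in control, the ratio of Lyz2 was 1.20, of Apoe 0.983 and of Ctsb 0.451. The 21 measured cell division genes had 175 UMIs in control, 37 at 1 day and 8 at 7 days, a ratio at 7 days of 0.323 (0.137 to 0.651), against shares in other cells of 0.311%, 0.159% and 0.141%.

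Activation genes could be read only in sums. The 11 listed costimulation genes, such as Cd80, Cd86 and Cd40, had 8 UMIs in the control members, 1 at 1 day and 3 at 7 days. A change in them was not detectable at this depth. The 17 listed chemokine genes had 62, 8 and 27 UMIs, with a ratio at 7 days of 3.08 (1.88 to 4.91). In other cells they went from 0.246% of UMIs in control to 2.02% at 7 days, above the 0.518% of the members, and in barcodes under 200 genes to 2.69%. The 19 listed cytokine genes had 18, 0 and 10 UMIs, with a ratio at 7 days of 3.93 (1.62 to 8.98), and went from 0.0599% to 0.330% in other cells. Among the cytokines, Il1b (interleukin-1 beta) had 11, 0 and 5 UMIs, and its ratio of 3.22 at 7 days had an interval from 0.876 to 10.0.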

How the data were processed

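The authors deposited UMI counts per gene and barcode without normalization, made per the file headers with the Drop-seq tools from 1 library per condition. The submitters' processing notes name STAR 2.5.2a and the build hg19, a human build, although samples and gene symbols are of the mouse, so no coordinates of counted genes are given. The tables hold 19091 genes. Members had 36874, 7356 and 5212 UMIs in total (control, 1 day, 7 days). Counts were summed over the cells of a gate. Shares carry exact Clopper-Pearson, sums exact Poisson and ratios conditional binomial 95% intervals, which cover counting error only. A ratio needs more than 3 counts in 1 library, and for a named gene or list a library at 0 was set to 3 counts. In the counts of genes past 2-fold, a library at 0 stayed at 0. Gate limits, denominators, depth and markers of other cells were varied. Doublets were not called or removed. Calculations used Python 3.11.15, numpy 2.4.6 and scipy 1.17.1 and were tested on simulated data. The genes named were those of the rule, list genes with at least 10 UMIs in members, the 10 largest ratios in each direction per time point, and the 20 leading genes. Others are named as seen, among them Lyz2, the genes that led in control and those that stood at the ends of the contrasts between gates. The cell sets without a marker or with 1 marker were added after values had been seen. Members and gene lists were chosen with earlier results of these data known. The letters searched for the X box were shortened after matches to a longer form had been seen. Some results are not reported here.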

Additional observations from a re-analysis of the deposited data

How the results depend on the processing

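No paired analysis was possible because each condition is 1 library. The share of members (0.366%, 0.0757% and 0.124% in control, at 1 and 7 days) moved with the gate. In control it was 0.551% with at least 300 genes, 0.242% with no minimum, 0.0481% with at least 3 markers, 0.549% with at least 1 Cd74 UMI, 0.0578% with at least 10, 0.502% without cells bearing other types' markers, 2.21% of Cd74 cells and 0.243% with cells thinned to 500 UMIs. At 1 day it was 0.0216% with 3 markers and also with 10 Cd74 UMIs, 0 without other types' markers and 1.14% of Cd74 cells. At 7 days it was 0 with 3 markers, 0.0178% with 10 Cd74 UMIs and 2.13% of Cd74 cells. With 1 marker enough, chosen after seeing the data, it was 1.87%, 0.584% and 0.693%.

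Counts of genes past 2-fold moved with the number of cells and genes counted. The 3 higher genes at 1 day became 6 with at least 300 genes, 0 with 3 markers, 5 with 10 Cd74 UMIs, 5 without macrophage markers, 10 without cells over 20% mitochondrial, 62 with 1 marker enough, 5 with other totals, 5 with the median at 0, 16 at 15 UMIs, 26 at 1.5-fold and 1 at 3-fold. The 27 lower genes became 3 with 3 markers, 5 with 10 Cd74 UMIs, 17 without cells over 20% mitochondrial, 233 with 1 marker, 16 thinned, 83 at 15 UMIs, 11 at 60, 49 at 1.5-fold and 11 at 3-fold. At 7 days the 23 higher genes became 2 with 10 Cd74 UMIs, 15 without macrophage markers, 170 with 1 marker, 7 thinned, 67 at 15 UMIs, 4 at 60, 52 at 1.5-fold and 11 at 3-fold. The 25 lower genes became 6, 11 and 200 under the first 3 of these, 78 at 15 UMIs, 11 at 60 and 46 at 1.5-fold.

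Of 679 other values, 568 stayed within their 95% interval, 106 moved beyond it and 5 changed direction: Lyz2 at 1 day (1.58) and 7 days (1.20) and Apoe at 1 day (2.01) without macrophage markers, and, without other types' markers, Ctsb at 7 days (2.31) and Mki67 against other cells (0.639). Such removal left 0 members at 1 day and 3 markers left 0 at 7 days, so no gene was counted there. With 7 members per library after IRE, depth limits all genes under about 30 UMIs.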
